A study of Ailuropoda melanoleuca with 25 samples.

Results

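MYL2, TNNC1, and ACTA1 encode a thick filament light chain, the calcium-binding subunit of troponin, and an actin of the thin filament, and their messenger RNA was followed through 5 tissues of the giant panda (Ailuropoda melanoleuca). They were chosen by name, and these 3 genes of the 25376 in the deposited table were found by identifier (MYL2 is ENSAMEG00000013825, TNNC1 is ENSAMEG00000008763, and ACTA1 is ENSAMEG00000009131). The names came from the study's own list of tissue-specific DEGs, which pairs 1778 identifiers with a name. All 3 were listed there for the heart from these same libraries, so that their height in the heart is given below as a description, and nothing is read from the fit of that contrast. Heart, liver, spleen, lung, and kidney were each sampled after death from 5 captive pandas, giving 25 libraries with 1 library per tissue and panda. Panda 1 was a female with a labelled age of 27 that died of ovarian cancer, and panda 2 was a female with a labelled age of 9 whose cause of death is given as ileac pssion. Pandas 3 and 4 were females and panda 5 was a male, all with a labelled age of 0.5 and all dead of coronavirus infection. The age labels carry no unit. There was no treatment and no healthy control animal, and age, cause, and year of death changed together, so that these cannot be told apart in any comparison of pandas 3 to 5 (called young here) with pandas 1 and 2 (called older).

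Contraction of striated muscle is driven by myosin heads of the thick filament pulling on actin in the thin filament. Each myosin heavy chain carries an essential and a regulatory light chain, and MYL2 is the regulatory light chain of the ventricle and of slow skeletal muscle. On the thin filament, calcium binds to troponin C, the troponin complex then shifts tropomyosin along the actin strand, and myosin can bind. TNNC1 is the troponin C of heart and slow muscle, working with the inhibitory subunit TNNI3 and the tropomyosin-binding subunit TNNT2. ACTA1 is the alpha-actin of skeletal muscle, which heart muscle also makes beside the cardiac alpha-actin ACTC1.

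The values are FPKM, the sequenced fragments on a gene scaled to the length of the gene and to the size of its library. The study sequenced in pairs of reads, so each read counted below stands for a fragment, that is, a read pair. The authors aligned to the genome build ailMel1, and since no annotation of that build was used here, the positions of the genes are not given. Because whole reads had been counted, the values of a gene rise in steps of 1 read. Read numbers could be recovered for all 24207 genes above 0 in a library. The lower values lay within 0.05 reads of a whole number. The highest values, among them those of the 3 genes in the heart, were not held to that limit. The libraries held between 13149580 and 21383380 reads on genes (median 16215829). A count of 0 allows up to 3 reads, for counting error only, which was 0.233 to 0.378 FPKM for MYL2, 0.289 to 0.469 for TNNC1, and 0.125 to 0.203 for ACTA1 in the tissues other than the heart. The steps imply gene lengths of 603 bases for MYL2, 486 for TNNC1, and 1125 for ACTA1. All 9 cardiomyocyte markers were higher in each heart library than in every other library, and the same held for 4 of 5 hepatocyte markers in the liver (APOA1 was the exception), all 4 B cell markers in the spleen, all 3 lung epithelium markers, and all 4 kidney tubule markers. In tissue RNA, fewer cells of a type and less RNA per cell cannot be told apart. The actin genes are related in sequence, and the split of reads between ACTA1, ACTC1, and other actins was not checked.

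MYL2 was the most abundant of the 3 genes in every heart. Its FPKM was 34419 in panda 1, 27904 in panda 2, 32042 in panda 3, 23304 in panda 4, and 26141 in panda 5, with a mean of 28762 ± 4476 (SD, n = 5). The highest heart stood 1.48-fold above the lowest, and the young and older hearts overlapped. TNNC1 measured 19034, 18811, 26039, 19431, and 20068 FPKM in the hearts of pandas 1 to 5, with a mean of 20677 ± 3036 (SD, n = 5). Panda 3 stood clear of the other four hearts, which lay within a narrow range. ACTA1 measured 15324, 11236, 12841, 7254, and 6455 FPKM in the same order, with a mean of 10622 ± 3746 (SD, n = 5). It was the most variable of them, 2.37-fold higher in panda 1 than in panda 5, and lowest in the young pandas 4 and 5.

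Ranked by FPKM among all genes of a heart library, MYL2 stood between place 1 and place 7, TNNC1 between 6 and 10, and ACTA1 between 11 and 22. Together the 3 genes held between 4.61% (panda 5) and 6.50% (panda 1) of the summed FPKM of a heart, and between 3.17% and 4.72% of its reads. The coefficient of variation over the hearts was 15.6% for MYL2 and 14.7% for TNNC1, below the median of 34.7% over 12657 genes whose heart mean exceeded 1 FPKM. For ACTA1 it was 35.3%, near that median, while the 156 genes above 1000 FPKM in the heart had a median of 22.5%.

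**Figure D1:**
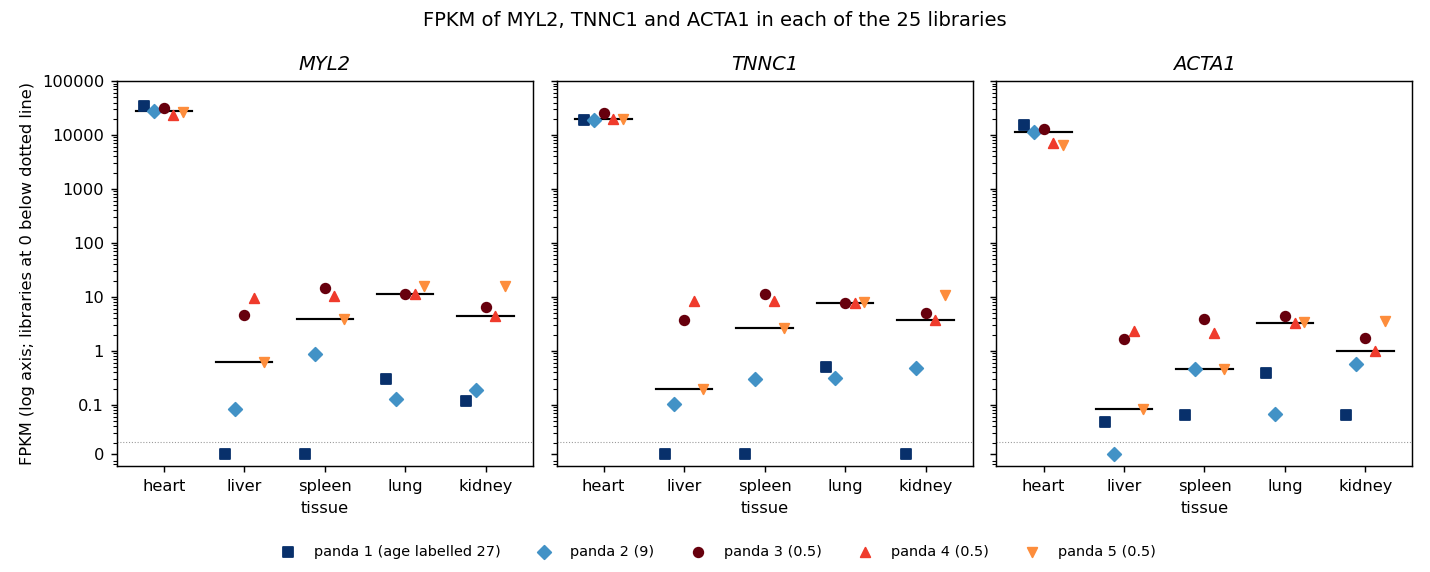
FPKM (log axis) of MYL2, TNNC1, and ACTA1 by tissue, with a point per library, a colour and symbol per panda, and a line at the tissue median, where libraries at 0 are drawn below the dotted line. The hearts lie between 6455 and 34419 FPKM, and every other library lies below 16 FPKM, with the libraries of pandas 1 and 2 lowest except for ACTA1 in the spleen.

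The proportions of the 3 genes differed between the hearts. For each unit of MYL2 there was 0.553 of TNNC1 in panda 1, 0.674 in panda 2, 0.813 in panda 3, 0.834 in panda 4, and 0.768 in panda 5, as ratios of FPKM. The young hearts thus lay above both older hearts. The ratio of ACTA1 to TNNC1 ran the other way, at 0.805, 0.597, 0.493, 0.373, and 0.322 in pandas 1 to 5. The ratio of ACTA1 to MYL2 was 0.445, 0.403, 0.401, 0.311, and 0.247, with panda 2 and panda 3 almost level. With 3 pandas against 2, the smallest p that an exact permutation test allows is 0.1, so that none of these orders can pass a threshold of 0.05.

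Among the thick filament genes, MYL2 was accompanied in the heart by its partner MYL3, the ventricular essential light chain, at 7632 ± 640 FPKM (SD, n = 5), and by MYH7, the beta-myosin heavy chain, at 1859 ± 482. MYL3 was the steadiest of the list, its highest heart standing 1.24-fold above the lowest. MYL2 exceeded MYL3 by a factor of 2.74 to 4.69 and MYH7 by a factor of 11.2 to 21.5 in the individual hearts. MYBPC3, the cardiac myosin-binding protein C, reached 601 ± 207 FPKM, and the M-band proteins MYOM1 and MYOM2 reached 181 ± 49.5 and 186 ± 36.7.

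The light chains known from the atrium behaved differently from MYL2. MYL7, the atrial regulatory light chain, was at 47.9, 454, 104, 3.52, and 25.7 FPKM in the hearts of pandas 1 to 5. MYL4, the atrial essential light chain, was at 9.57, 126, 77.6, 0.103, and 0.291. Both were highest in panda 2 and lowest in panda 4, and at its highest MYL7 reached a ratio of 0.0163 to MYL2. No label says which part of the heart was sampled.

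On the thin filament, TNNC1 exceeded both of its complex partners in every heart. TNNI3 reached 8568 ± 1158 FPKM (SD, n = 5) and TNNT2 8825 ± 1110, and TNNC1 was 2.17 to 2.81 times TNNI3 and 1.78 to 2.99 times TNNT2. TNNT1, the troponin T of slow skeletal muscle, was at 172 to 506 FPKM, lowest in panda 5, and TPM1, the alpha-tropomyosin, at 13343 ± 2498. TPM1 lay above ACTA1 in pandas 2, 4, and 5 and below it in pandas 1 and 3.

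The cardiac actin ACTC1 was below ACTA1 in all 5 hearts. ACTC1 measured 1264, 435, 360, 244, and 1922 FPKM in pandas 1 to 5, so that ACTA1 was 12.1, 25.8, 35.7, 29.7, and 3.36 times as high. Panda 5 had both the lowest ACTA1 and the highest ACTC1, whereas panda 1 had the highest ACTA1 and the second highest ACTC1. The split of reads between these related genes was not checked, as said above. Of the other thin filament genes, LMOD2, a leiomodin that lengthens actin filaments, ranged from 194 to 763 FPKM, and NEBL, the nebulin-related protein of heart muscle, from 238 to 546.

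**Figure D2:**
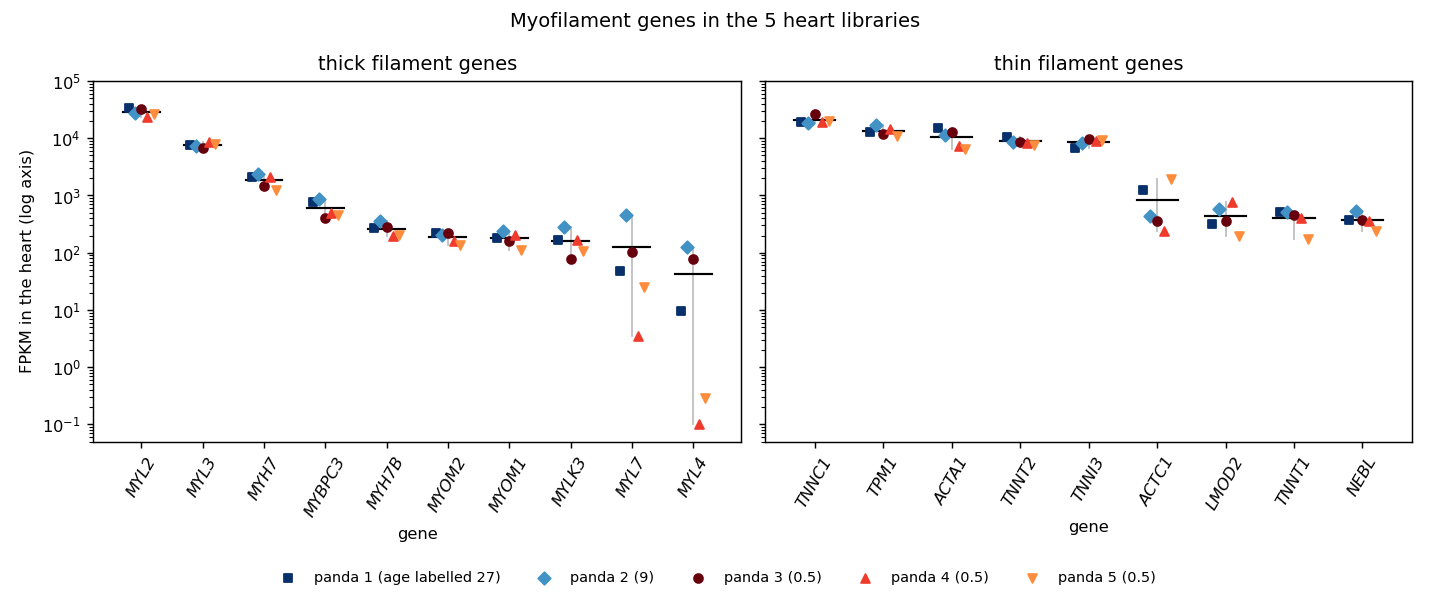
FPKM (log axis) of the 10 thick filament and 9 thin filament genes with an identifier in the 5 heart libraries, ordered by their mean, with a point per panda, a short line at the mean, and a grey line from lowest to highest. MYL2 leads the thick filament genes and TNNC1 the thin filament genes, and MYL7 and MYL4 spread most widely.

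Outside the heart all 3 genes were found at traces that depended on the panda. In the liver MYL2 was at 0, 0.0821, 4.55, 9.68, and 0.620 FPKM in pandas 1 to 5, and in the spleen at 0, 0.863, 14.8, 10.3, and 3.81. In the lung it was at 0.307, 0.126, 11.1, 11.5, and 15.6 FPKM, and in the kidney at 0.119, 0.191, 6.54, 4.50, and 15.9. In each tissue the young libraries lay above both older ones, and 7 of the 8 older libraries held at most 3 MYL2 reads, against 8 to 162 reads in the 12 young libraries.

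TNNC1 was lower than MYL2 in all 12 young libraries. It was at 0, 0.102, 3.76, 8.40, and 0.192 FPKM in the livers of pandas 1 to 5, and at 0, 0.306, 11.2, 8.45, and 2.60 in the spleens. In the lungs it was at 0.508, 0.313, 7.78, 7.75, and 8.07 FPKM, and in the kidneys at 0, 0.475, 5.03, 3.68, and 10.7. The young libraries were again above both older ones in all 4 tissues, although the liver of panda 5 held only 2 TNNC1 reads against 1 read in the liver of panda 2.

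ACTA1 was the lowest of the 3 in all 12 young libraries. It was at 0.0477, 0, 1.67, 2.34, and 0.0831 FPKM in the livers, and at 0.0649, 0.463, 3.86, 2.18, and 0.460 in the spleens. In the lungs it was at 0.384, 0.0676, 4.46, 3.29, and 3.37 FPKM, and in the kidneys at 0.0636, 0.564, 1.73, 0.986, and 3.58. Young and older libraries overlapped in the spleen, where panda 5 was level with panda 2 at 9 and 7 reads, and not in the other tissues.

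Among the genes that averaged more than 1 FPKM in either age class, 46 of 16373 (0.281%) had every young library above both older ones in each of the 4 tissues, MYL2 and TNNC1 among them, and 1.62% had this order in at least 3, as ACTA1 did. Only 3 of those 46 have a name in the list used, and the third is CSRP3, the muscle LIM protein of striated muscle, at a mean of 3712 FPKM in the heart. MYL2, TNNC1, ACTA1, and CSRP3 passed the limit of 1 FPKM only through the young class. Their older means were 0.211, 0.213, 0.207, and 0.119 FPKM, so that these shares are a description and lend the order no support. Read against the heart of the same panda, the median level in the young libraries was 0.0381% for MYL2 (0.00237% to 0.0609%), 0.0349% for TNNC1 (0.000959% to 0.0535%), and 0.0300% for ACTA1 (0.00129% to 0.0555%). With TMM factors, which rescale each library, these medians were 0.0184%, 0.0157%, and 0.0125%. In the 8 older libraries the medians as deposited were 0.000398%, 0.00108%, and 0.000512%.

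As a sum over the 3 genes, to which MYL2 gives the most, panda 5 had 0.00170% of its heart level in the liver and 0.0574% in the kidney, the lowest and the highest of the young libraries. Panda 3 had its highest share in the spleen at 0.0421%, and panda 4 ranged from 0.0183% in the kidney to 0.0450% in the lung. No tissue was highest in all 3 young pandas. Among the young lungs panda 3 had the highest ACTA1 and the lowest MYL2, on 69 and 92 reads against 54 and 101 in panda 4. The ratio of ACTA1 to MYL2 was 0.402, 0.287, and 0.216 in the lungs of pandas 3 to 5, beside 0.401, 0.311, and 0.247 in their hearts. It was 0.368, 0.242, and 0.134 in their livers, where panda 5 held 2 ACTA1 reads. In their spleens it was 0.261, 0.211, and 0.121, and in their kidneys 0.264, 0.219, and 0.225. In the 11 young libraries with at least 20 reads on both genes, the ratio of TNNC1 to MYL2 was 0.516 to 0.867 (median 0.759), beside 0.768 to 0.834 in the young hearts. In the 9 young libraries with as many reads, the ratio of ACTA1 to MYL2 was 0.211 to 0.402 (median 0.261), beside 0.247 to 0.401.

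**Figure D3:**
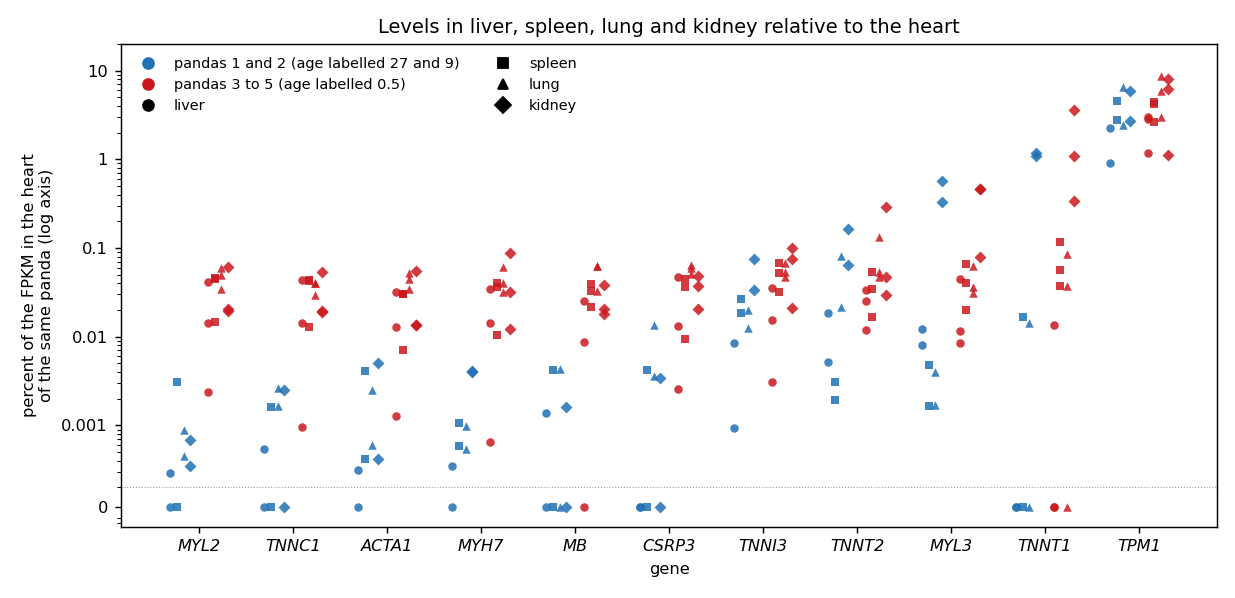
FPKM in liver, spleen, lung, and kidney as percent of the FPKM in the heart of the same panda (log axis), with a point per library, a symbol per tissue, and libraries at 0 below the dotted line. The young libraries of MYL2, TNNC1, and ACTA1 reach at most 0.0609%, and those of MYH7, MB, and CSRP3 at most 0.0882%. Higher values occur for MYL3, TNNI3, TNNT1, and TNNT2, each highest in the kidney, and for TPM1 in all tissues.

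The first comparison set the heart against each other tissue. On the log2(FPKM + 1) scale, the heart minus liver difference was 13.46 (SE 0.59) for MYL2, 13.15 (SE 0.57) for TNNC1, and 12.63 (SE 0.41) for ACTA1, and the smallest of the 12 differences was that of ACTA1 from the lung at 11.85 (SE 0.45). The scale understates differences of genes near 0. All 12 differences met the call rule, an adjusted p below 0.05 with a log2 difference beyond 2, which in the direction of the heart was met by 8.40% of the genes tested against the liver, 3.88% against the spleen, 3.40% against the lung, and 3.06% against the kidney. Since the study had listed the genes from this contrast, nothing is read from that count. The median of all genes was shifted by -1.16 against the spleen, -1.17 against the lung, -0.76 against the kidney, and 0.14 against the liver, so that relative to all genes MYL2 stood 13.60 above the lung in place of 12.43.

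The other myofilament genes were also higher in the heart. All 10 thick filament genes and all 9 thin filament genes with an identifier were called higher in the heart against each of the 4 tissues, with a median log2 difference of 6.23 to 7.05 for the thick and 8.83 to 9.15 for the thin filament list. The study had listed all of them for the heart, so that these counts too are a description. The smooth muscle myosin MYH11, called lower in the heart than in the spleen, had a log2 difference of -2.31, and the smooth muscle regulatory light chain MYL9 was at 1.08 in the same comparison.

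The second comparison asked whether the 3 genes differed between liver, spleen, lung, and kidney, which their choice did not use. None of the 18 differences was called by limma, and none had an unadjusted p below 0.05, while of all genes 6.88% were called between spleen and lung, 12.2% between lung and kidney, 14% between liver and kidney, 14.3% between spleen and kidney, 29.0% between liver and lung, and 29.9% between liver and spleen. The largest differences were those between liver and lung, at -1.03 (SE 0.90, adjusted p = 0.313) for MYL2, -0.91 (SE 0.77, adjusted p = 0.295) for TNNC1, and -0.78 (SE 0.52, adjusted p = 0.186) for ACTA1. The median of all genes in that comparison was -1.28, and relative to it the 3 genes stood 0.25, 0.37, and 0.50 higher in the liver. The sign thus depends on the scaling, and with TMM factors or quantile normalization it turned. By their medians the tissues ran from lung through kidney and spleen to liver for each gene, and no neighbours in that order were called. With the panda as a block the 18 differences kept their size with smaller errors, and again none was called. The shares of all genes above are from the fits without the block, and those with it are not given here. Of the neighbours, MYL2 had a liver minus spleen difference of -0.79 (SE 0.30, adjusted p = 0.0395), short of the limit on the log2 difference and smaller than the median of -1.29 over all genes. The liver minus lung difference of ACTA1 (-0.78, SE 0.30, adjusted p = 0.0397) was also short of that limit. Within pandas, MYL2 and ACTA1 were lower in the liver than in the lung in all 5, and TNNC1 in 4 of 5.

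Of the 19 myofilament genes with an identifier, 4 were called in at least one of the 6 pairs, namely MYL3, MYOM1, TNNT1, and NEBL. Of all genes tested in a pair, 41.1% were called. Not all 19 were tested, since between lung and kidney 7 of 10 thick and 7 of 9 thin filament genes passed the filter. The 4 of 19 and the 41.1% are thus not over like sets. The light chain MYL3 was at a mean of 28.3 FPKM in the kidney (6.75 to 41.5) and of 1.36 to 2.13 in liver, spleen, and lung, with a spleen minus kidney difference of -3.34 (SE 0.54, adjusted p = 2.82e-04). TNNT1 was at 4.79 FPKM in the kidney and below 0.14 on average elsewhere outside the heart, with a lung minus kidney difference of -2.33 (SE 0.31, adjusted p = 6.25e-05). The study had listed both for the kidney as well, so that these are not independent of its choice. MYOM1 was lower in the liver than in the lung by -2.25 (SE 0.24, adjusted p = 9.14e-06), and NEBL was higher in the lung than in the kidney by 2.35 (SE 0.45, adjusted p = 0.00111). TPM1, whose product also serves in other cells, was at means of 253 to 663 FPKM in these tissues.

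The third comparison set the 3 young pandas against the 2 older ones, with the mean of log2(FPKM + 1) over the 4 other tissues as 1 value per panda. A pattern of levels by panda had been seen in earlier results of these data. The p-values below are thus a description and no independent test of that pattern. The difference was 2.84 (SE 0.27, adjusted p = 0.141) for MYL2, 2.43 (SE 0.31, adjusted p = 0.268) for TNNC1, and 1.34 (SE 0.27, adjusted p = 0.497) for ACTA1, all higher in 3 of 3 young pandas than in both older ones. None passed the threshold after adjustment. All 3 genes entered this fit only through the young pandas, since their older means lay below 1 FPKM. With no filter, limma gave an adjusted p of 0.744 for each. The size depended on the scale, since a pseudocount of 0.1 gave 4.92, 4.38, and 2.93 (adjusted p = 0.0902, 0.295, and 0.573) and limma-voom on recovered reads gave 5.52, 4.85, and 3.44 (adjusted p = 0.625 for each). The limma fit called 0 of 16373 genes (0%), while 1251 (7.64%) had an unadjusted p below 0.05, as the 3 genes did at 8.64e-06, 5.81e-05, and 0.00112. On the FPKM scale the mean of the 4 tissues for MYL2 was 0.106 and 0.316 in pandas 1 and 2 and 9.24, 8.99, and 9.00 in pandas 3 to 5, where an exact permutation test (two-sided) gave p = 0.1, the smallest that 3 against 2 allows. TNNC1 and ACTA1 gave the same p, with young means of 6.47 ± 0.929 and 2.33 ± 0.540 FPKM (SD, n = 3) and older means of 0.213 and 0.207. Of the 3 genes, only MYL2 was called without panda 5, at 3.0 (SE 0.35, adjusted p = 0.0432). The share of all genes called in that fit is not given here.

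In the heart the same contrast gave -0.20 (SE 0.19) for MYL2, 0.19 (SE 0.18) for TNNC1, and -0.64 (SE 0.32) for ACTA1, each at an adjusted p of 0.999 by limma. No gene of 13096 was called (0%), and 581 (4.44%) had an unadjusted p below 0.05, the 3 genes not among them. The TNNC1 levels of the young hearts, 19431 to 26039 FPKM, lay above those of the older hearts, 18811 and 19034, an order that 6.89% of genes had in the heart. Its sign turned to -0.01 under quantile normalization.

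The difference between both contrasts, other tissues minus heart, was 3.05 (SE 0.32, adjusted p = 0.143) for MYL2, 2.23 (SE 0.32, adjusted p = 0.768) for TNNC1, and 1.98 (SE 0.32, adjusted p = 1) for ACTA1. Again 0 of 17011 genes (0%) were called, and 296 (1.74%) had an unadjusted p below 0.05. The call depended on the pseudocount. With 0.1 in place of 1 all 3 genes were called, at 5.12, 4.18, and 3.56 with adjusted p of 0.0105, 0.0305, and 0.0305, and with the lung alone MYL2 was called at 3.69 (adjusted p = 0.0442). The share of all genes called in these settings is not given here, so the calls cannot be read as particular to the 3 genes. For most of the older libraries these differences rest on at most 3 reads per gene.

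**Figure D4:**
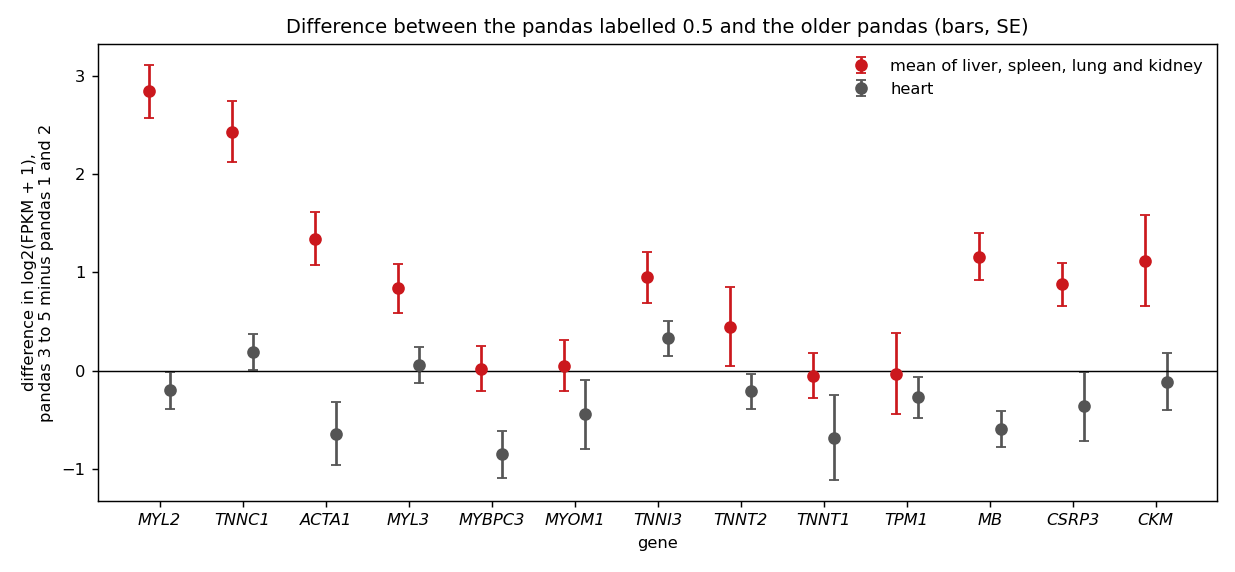
Difference in log2(FPKM + 1) between pandas 3 to 5 and pandas 1 and 2, with the SE as bars, in the mean of liver, spleen, lung, and kidney (red) and in the heart (grey). Outside the heart MYL2 at 2.84 and TNNC1 at 2.43 lie highest of the genes drawn, and in the heart they lie at -0.20 and 0.19.

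Among other genes that are high in the heart, differences outside it lay in both directions, and none was called. MB, the oxygen-binding myoglobin, differed by 1.16, CKM, the muscle creatine kinase, by 1.12, TNNI3 by 0.95, CSRP3 by 0.88, and MYL3 by 0.84 between young and older pandas in the mean of the 4 tissues, whereas TPM1 gave -0.03, MYBPC3 0.02, TCAP, the titin cap, -0.50, and DES, the intermediate filament protein desmin, -0.87. TCAP was lower in the young than in both older pandas in spleen (3.31 to 8.03 against 9.99 to 11.4 FPKM) and kidney (7.33 to 10.4 against 12.3 to 14.6), and DES in the lung (50.4 to 89.0 against 127 to 165). That order was met by 15.9% of genes in the spleen, 12.1% in the kidney, and 5.55% in the lung. Of the 14 other cardiomyocyte genes with an identifier, 10 were tested and none called, with a median of 0.43 beside -0.03 over all genes tested, and the medians of the tested thick and thin filament genes were 0.02 and 0.45. The summed FPKM of the 9 cardiomyocyte markers was 3.49 to 11.1 in the young and 2.44 to 3.19 in the older livers, 134 to 227 and 104 to 128 in the spleens, 34.2 to 82.7 and 29.7 to 30.2 in the lungs, and 30.8 to 58.6 and 22.3 to 41.0 in the kidneys. Most of the sum in the spleen was PLN, the phospholamban of heart and smooth muscle, at 119 to 220 FPKM in the young and 98.7 to 124 in the older pandas, and PLN was at 18.4 to 64.8 and 17.0 to 24.4 in the lung. Among the older pandas MB was at 0 in at least one library of every tissue, MYH7, ACTN2, RYR2, and CASQ2 in at least one liver, and CASQ2 also in lung and kidney. Among the young pandas ACTN2, CASQ2, and MB were at 0 in at least one liver and CASQ2 in a kidney.

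Markers of the other organs were also looked at outside their own organ. Of 64 cases (16 markers, each in the tissues not its own), the young pandas lay above both older ones in 14 and below in 1. Lung held 7 of the 14, heart 5, liver 2, and spleen and kidney 0. Of all genes averaging above 1 FPKM in an age class, 7.94% had this order in lung, 6.89% in heart, and 2.77% in liver. In spleen it was 11.5% and in kidney 7.68%. The markers had no such filter, and some lay near 0, as UMOD in the liver (0.0242 to 0.223 FPKM in the young, 0 in the older). SFTPC, the surfactant protein C of the lung, was at 1.96 to 8.12 FPKM in the young and 0 to 0.111 in the older hearts, and at 0.875 to 9.61 and 0.168 to 0.274 in the livers. The part of these marker genes, cardiac or other, in the levels of MYL2, TNNC1, and ACTA1 was not tested. Only 1 of the 8 skeletal muscle fibre markers and 2 of the 6 smooth muscle markers had an identifier, so those lists could not be read.

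A wider set was drawn after the values were seen, from the 18 genes that averaged over 1000 FPKM in the heart and below 1% of it in every other library. Their median share of the heart level in the young libraries ran from 0.0292% for MB to 0.165% for TCAP. The order of young above older in all 4 tissues, given above for 0.281% of genes, was that of 3 of the 18, which are again MYL2, TNNC1, and CSRP3. In the older libraries the median share ran from 0% for NPPB, the natriuretic peptide B, and others to 0.215% for TCAP.

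The genes most like MYL2 over all 25 libraries, by Pearson's r of log2(FPKM + 1), were TNNC1 (r = 0.999), ACTA1 (0.991), MB (0.989), CSRP3 (0.985), and TNNI3 (0.983). For TNNC1 they were MYL2, ACTA1, MB, CSRP3, and TNNI3 (0.987 to 0.999), and for ACTA1 they were CSRP3, MB, MYOZ2, MYH7, and TNNC1 (0.994 to 0.998). These values mostly express the gap between the heart and the rest. Over the 20 libraries of the other tissues, among genes above 0 in at least 10 of them, the first for MYL2 were TNNC1 (0.989), ACTA1 (0.954), MB (0.936), MYH7 (0.931), and CSRP3 (0.930). TNNC1 and ACTA1 had the same set, each with the other members of the trio first. Libraries of a panda are not independent, so these correlations are descriptions.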

How the data were processed

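Messenger RNA of 5 tissues from 5 pandas was sequenced in pairs of reads by the study. The authors used HISAT2 for alignment to ailMel1, Cufflinks for further genes, and HTSeq for read counts, and deposited FPKM for each gene and library. A strand setting is not given in the sources used here, and the authors themselves used DESeq. From the deposited FPKM, whole reads were recovered by the steps of the low values. In the recovery 24207 of 24207 genes came out whole on the values checked. Differences were tested with limma 3.58.1 (R 4.3.3, variance trend) on log2(FPKM + 1) over all genes with a mean FPKM above 1 in a group compared, with Benjamini-Hochberg adjustment. A call needed a log2 difference beyond 2 at an adjusted p below 0.05. On simulated data for lung minus spleen (16005 genes), 165 of 200 genes changed 8-fold were called and 0 unchanged genes, and for young minus older hearts (12657 genes) 149 of 200 and 0. The simulated counts were independent, with a single fixed dispersion for all genes and no panda effect. They thus do not measure what share of real differences these fits can call. The real young minus older fit in the heart called 0 of 13096 genes.

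Libraries of the same number come from the same animal per the labels. With tissue means removed, same-panda pairs correlated at a median of 0.367 and 49 of 50 exceeded 0.1, beside -0.122 for different pandas. Named genes were the 3 members, every gene of 4 lists (thick filament, thin filament, smooth muscle and cytoplasmic, other cardiomyocyte genes) with an identifier, and the 5 genes most alike to each member. Of 85 genes listed with the markers, 53 had an identifier. The members and lists were chosen with earlier results of these data known. The contrast of young with older pandas was also set with them known. Sequences were not analysed here, and a planned promoter motif search was not run. Alternatives were TMM factors, quantile normalization, a pseudocount of 0.1, no filter, limma-voom on recovered reads, a fit over all libraries, the panda as a block, single tissues, and each panda left out. Python 3.11.15, numpy 2.4.6, pandas 2.3.3, and matplotlib 3.10.9 were used.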

Additional observations from a re-analysis of the deposited data

Results flagged for a closer look

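TNNC1 in the heart of panda 3, at 26039 FPKM, stood apart from the other 4 hearts, which lay between 18811 and 20068 FPKM. Its gap to the nearest heart was 0.826 of the whole range, above Dixon's critical value of 0.71 for 5 libraries. This was the single such case among 15 groups of 5 libraries tested, and chance gives about 1 in 20. MYL2 and ACTA1 in the same heart were second highest of the 5. In the same library TNNI3 was the highest of the 5 hearts, at 9717 FPKM.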

How the results depend on the processing

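The 12 calls of the heart against the other tissues were made under every alternative run, which says nothing on stability, since the choice of the genes fixed them. Among pairs of the other tissues 0 were called under every alternative. With the panda as a replicate block 12 and 0 were called, and the ACTA1 difference between liver and lung was -0.78 with an adjusted p of 0.0397, that of MYL2 between liver and spleen -0.79 with 0.0395. The liver minus lung differences turned sign under quantile normalization, to 0.08 for MYL2, 0.21 for TNNC1, and 0.24 for ACTA1, and under TMM factors, to 0.00, 0.08, and 0.03. The TNNC1 difference between young and older hearts turned to -0.01 under quantile normalization. For young against older pandas in the other tissues, leaving out each panda gave 0 to 1 calls, the 1 being MYL2 without panda 5. For the difference between other tissues and heart, 3 genes were called at a pseudocount of 0.1 and 1 with the lung alone, and 0 in the other alternatives. These counts are of the 3 members, and the share of all genes called under each alternative is not given. For young against older pandas the MYL2 difference in the other tissues was 4.92 at a pseudocount of 0.1 and 5.52 with limma-voom. Over all 15 settings of that result the MYL2 difference ran from 2.14 to 5.52. For other tissues minus heart it ran from 2.34 to 5.65 over 15 settings. With TMM factors the median share of the heart level in the young libraries was 0.0184% for MYL2, 0.0157% for TNNC1, and 0.0125% for ACTA1. The cause of these changes was not tested. Depth limits the older libraries most, since 7 of 8 held at most 3 reads of MYL2, 6 of TNNC1, and 5 of ACTA1.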
